A study of Mus musculus with 11 samples.

Results

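ICN1 binding was compared between a pair of transduced derivatives of 8946, a mouse T-cell acute lymphoblastic leukaemia (T-ALL) cell line. The members are all peaks of the deposited ICN1 list of the Flag-Zmiz1/L1601PDP line, which holds 82, and all peaks of the deposited ICN1 list of the HA-Zmiz1/DEGFDLNRDP line, which holds 414. These 496 peaks are part of 158769 factor peaks and histone segments in the series. Both lines carried a retroviral, epitope-tagged Zmiz1 linked to the surface marker NGFR and a retroviral, activated Notch1 linked to GFP, and cells positive for both markers were sorted. The L1601PDP line had Flag-tagged Zmiz1 with the L1601PDP form of Notch1, and the DEGFDLNRDP line had HA-tagged Zmiz1 with the DEGFDLNRDP form. The labels do not spell out these construct names. In published T-ALL work, constructs so named carry a leucine-to-proline substitution in the heterodimerization domain of Notch1, or lack its EGF and LNR repeats, and both lack the PEST degradation domain. Chromatin was crosslinked with DSG and formaldehyde and precipitated with 1 antibody to ICN1 (Cell Signaling Technology 4147s). Each line gave 1 ICN1 library, so no line had a replicate, the spread between repeats is unknown, and no test was made. Tag, Notch1 form, input and library change together between the lines and cannot be told apart. The headers of the DEGFDLNRDP list name pooled reads, and what was pooled is not given in the sources used here. No Notch-inhibited or untransduced 8946 sample was analysed here, so each list has its own input as its reference.

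Notch1 is a cell-surface receptor. When it is activated, proteolysis frees its intracellular part, ICN1, which enters the nucleus, joins the DNA-binding protein Rbpj and a Mastermind coactivator, and turns on target genes. In the T lineage Notch1 drives commitment in the thymus, and activating mutations of it are a hallmark of T-ALL. Zmiz1 is a PIAS-like coactivator that can act with Notch1. Much ICN1 in T-ALL is known to lie at distal enhancers, among them an enhancer of the growth regulator Myc far downstream of that gene.

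Rbpj, and through it ICN1, reads sites with the core TGGGAA. For the promoter windows, peaks where the input itself was high, as defined below, were left out. A promoter window is here taken as 250 bases before to 50 bases after a gene start in RefSeq (GRCm38.p6, the build mm10). No other ICN1 peak of the L1601PDP list overlapped such a window, whereas the remaining peaks of the DEGFDLNRDP list overlapped 44. The windows under the 4 strongest of these peaks by −log10 p, and that of Aph1a, a subunit of the γ-secretase that releases ICN1, are shown for the core near the peak. Sequences run 5′ to 3′ on the strand of the gene, and capitals mark TGGGAA or its reverse complement TTCCCA. The windows are chr16:55973554-55973853 on the plus strand for Zbtb11, chr9:114640151-114640450 on the minus strand for Cnot10, chrX:7696884-7697183 on the plus strand for Gpkow, chr6:5298291-5298590 on the minus strand for Pon2 and chr3:95893671-95893970 on the plus strand for Aph1a.
Zbtb11: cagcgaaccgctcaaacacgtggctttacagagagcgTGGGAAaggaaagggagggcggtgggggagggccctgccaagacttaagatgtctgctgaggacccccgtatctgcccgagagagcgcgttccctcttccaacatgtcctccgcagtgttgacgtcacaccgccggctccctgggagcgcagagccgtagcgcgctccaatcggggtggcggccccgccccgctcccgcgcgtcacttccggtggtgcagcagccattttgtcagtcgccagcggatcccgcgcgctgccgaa
Cnot10: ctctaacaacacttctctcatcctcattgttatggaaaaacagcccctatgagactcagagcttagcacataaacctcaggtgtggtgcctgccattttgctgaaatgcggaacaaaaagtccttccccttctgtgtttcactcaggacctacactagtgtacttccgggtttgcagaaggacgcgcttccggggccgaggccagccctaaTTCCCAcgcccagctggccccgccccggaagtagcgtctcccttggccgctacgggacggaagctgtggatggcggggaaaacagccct
Gpkow: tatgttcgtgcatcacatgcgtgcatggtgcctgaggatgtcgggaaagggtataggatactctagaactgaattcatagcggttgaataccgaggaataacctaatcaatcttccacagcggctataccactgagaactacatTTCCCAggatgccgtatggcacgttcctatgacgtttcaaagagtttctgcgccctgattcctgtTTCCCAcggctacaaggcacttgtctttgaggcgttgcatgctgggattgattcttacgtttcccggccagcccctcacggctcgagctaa
Pon2: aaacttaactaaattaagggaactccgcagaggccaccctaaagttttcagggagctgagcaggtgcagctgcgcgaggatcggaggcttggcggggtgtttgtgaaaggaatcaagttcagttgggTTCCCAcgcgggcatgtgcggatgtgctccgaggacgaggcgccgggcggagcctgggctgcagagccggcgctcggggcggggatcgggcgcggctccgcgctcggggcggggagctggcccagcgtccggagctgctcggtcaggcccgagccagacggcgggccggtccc
Aph1a: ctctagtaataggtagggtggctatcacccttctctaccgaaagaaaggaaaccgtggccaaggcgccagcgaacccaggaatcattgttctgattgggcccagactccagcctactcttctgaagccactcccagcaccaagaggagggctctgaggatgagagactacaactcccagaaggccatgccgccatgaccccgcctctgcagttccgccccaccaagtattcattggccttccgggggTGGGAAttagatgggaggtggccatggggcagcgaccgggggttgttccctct

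Counted from 1 at the 5′ end, the core began at base 38 in Zbtb11, 212 in Cnot10, 145 and 210 in Gpkow, 128 in Pon2 and 248 in Aph1a. The centre of the core nearest to the ICN1 summit lay 21.5 bp from it in Zbtb11, 31.5 bp in Cnot10, 24.5 bp in Gpkow, 16.5 bp in Pon2 and 19.5 bp in Aph1a. All 5 also held the longer GTGGGAA, which contains the core. With high-input peaks left out, TGGGAA on either strand was present in 29 of 44 windows (65.9%) under an ICN1 peak of the DEGFDLNRDP list. It was present in 8397 of all 32851 windows (25.6%). Among the 7203 windows with an Rbpj peak and no such ICN1 peak, it was present in 1625 (22.6%). GTGGGAA was present in 52.3%, 6.38% and 6.05% of these windows. A match is a description of the letters, and no window of the L1601PDP list was there to be searched. Peak sequences away from promoters were not analysed here.

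Depth was similar. After removal of duplicates, MACS used 15377221 ICN1 tags of the L1601PDP line against 36404168 input tags, and 13450671 ICN1 tags of the DEGFDLNRDP line against 26791332 input tags. The fragment lengths in the headers were 52 and 59 bp at a tag length of 52 bp, so pileups and widths were computed over about 1 read length. The T-cell label was checked by H3K4me3, a mark of active gene starts, in the L1601PDP line. An H3K4me3 segment lay over an end of 46.6% of all coding genes, of 12 of 12 T-cell markers, of 2 of 12 B-lineage markers (Cr2 and Ebf1) and of 1 of 12 myeloid markers (Itgam).

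The ICN1 lists shared part of their sites. Of the L1601PDP peaks, 51 of 82 (62.2%, exact Clopper-Pearson 95% interval 50.8 to 72.7) overlapped a DEGFDLNRDP peak by at least 1 bp. Of the DEGFDLNRDP peaks, 53 of 414 (12.8%, 9.74 to 16.4) overlapped a L1601PDP peak. These intervals cover counting error and treat peaks as independent, although neighbours are not. The lists differ in length, which limits the second share, since 82 peaks can meet only a small part of 414. With the 82 strongest peaks of each list, both shares were 32.9% (27 of 82). A site missing from a list is one that did not reach the authors' p limit of 1e-05 in that library.

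Part of each list lay where the input itself was high. The local input background of a peak was recovered as (pileup + 1)/fold − 1 and divided by the mean of the library, and a peak at 10 or more times the mean is called a high-input peak. There were 53 of these in the L1601PDP list and 32 in the DEGFDLNRDP list. The groups were well apart: the ratio reached at most 4.94 in the low-input and began at 23.7 in the high-input L1601PDP peaks, and reached 8.28 and began at 33.1 in the DEGFDLNRDP list. High-input peaks had weak enrichment in both lists, with folds of 2.02 to 4.54 in the L1601PDP list and 1.94 to 3.51 in the DEGFDLNRDP list.

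**Figure D1:**
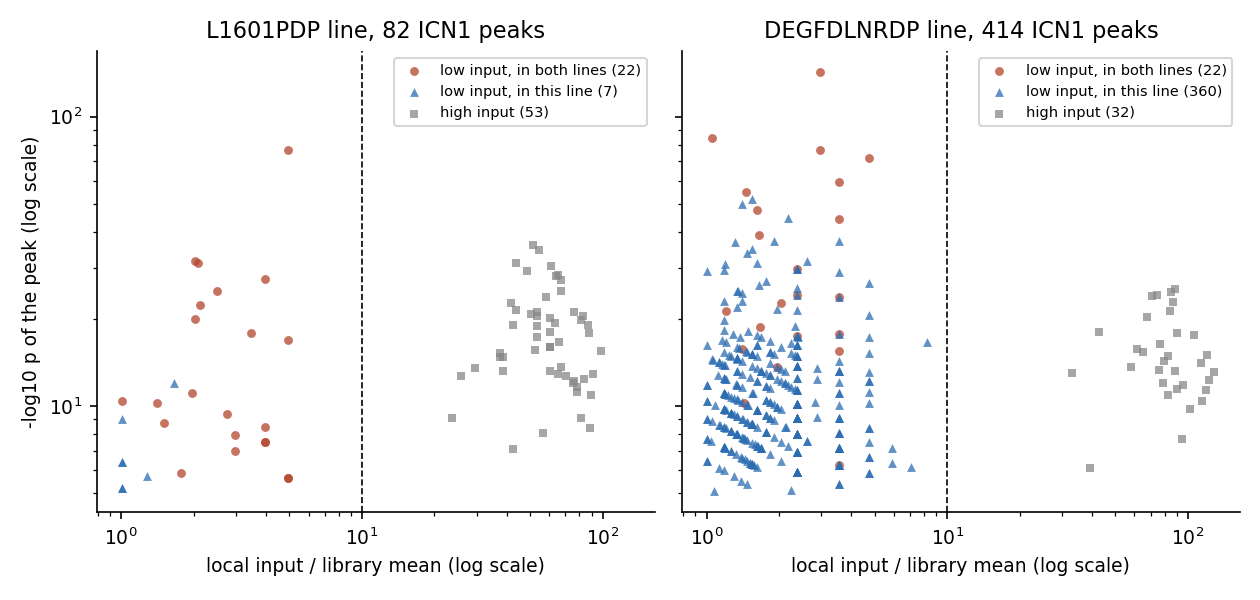
Each point is an ICN1 peak of the L1601PDP line (left) or the DEGFDLNRDP line (right), with its local input background as a multiple of the library mean on the x axis and its −log10 p on the y axis (both log scales). The dashed line stands at 10 times the mean, and 53 L1601PDP and 32 DEGFDLNRDP peaks lie to its right, in a cloud apart from the rest.

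High-input peaks clustered at a few places. Merging those within 50 kb of each other gave 17 places, of which 9 had peaks in both lines, 7 in the L1601PDP line and 1 in the DEGFDLNRDP line. Of these, 4 places held 8 or more L1601PDP peaks each: chromosome 17 from 39843204 to 39848811 (11 L1601PDP and 10 DEGFDLNRDP peaks), chromosome 9 from 3000028 to 3035885 (11 and 6), chromosome 2 from 98662252 to 98667294 (9 and 7) and chromosome 14 from 19415716 to 19419412 (8 and 3). Together they held 39 L1601PDP and 26 DEGFDLNRDP peaks. Of the high-input peaks, 29 of 53 in the L1601PDP list and 31 of 32 in the DEGFDLNRDP list overlapped the other list. Without high-input peaks the L1601PDP list kept 29 peaks and the DEGFDLNRDP list 382. Of these, 22 of 29 L1601PDP peaks (75.9%, exact interval 56.5 to 89.7) and 22 of 382 DEGFDLNRDP peaks (5.76%, 3.64 to 8.59) were found in both lines. That makes 389 sites: 22 in both lines, 7 in the L1601PDP list alone and 360 in the DEGFDLNRDP list alone. With lists of equal length, the 29 strongest low-input peaks of each line, 10 of 29 (34.5%) were in both. From here on, peaks are low-input peaks.

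The strongest sites of either list were found in both lines. By −log10 p, the 9 strongest L1601PDP peaks were all in both lines, as were 12 of the 13 with a value of 10 or more, Nln being the exception. In the DEGFDLNRDP list the 6 strongest were all in both lines. Along that list the share found in the L1601PDP list was 9 of 20 (45%, exact interval 23.1 to 68.5) at ranks 1 to 20, 8 of 40 (20%, 9.05 to 35.6) at ranks 21 to 60, 3 of 60 (5%, 1.04 to 13.9) at ranks 61 to 120 and 2 of 262 (0.763%, 0.0926 to 2.73) at ranks 121 to 382. The median fold over the input was 18.7, 11.4, 8.92 and 5.99 in these ranks. Even so, 11 of the 20 strongest DEGFDLNRDP peaks had no L1601PDP peak. The rank limits were chosen after the values were seen.

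**Figure D2:**
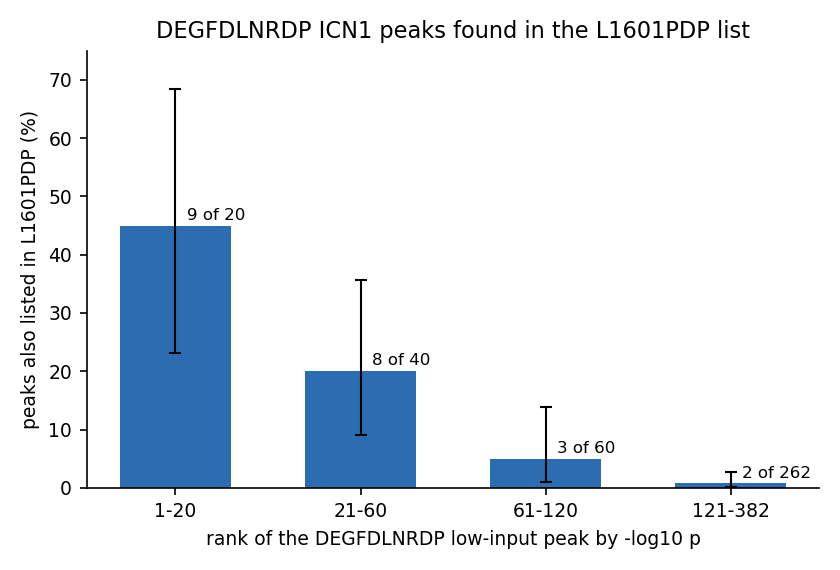
Bars give the percentage of low-input ICN1 peaks of the DEGFDLNRDP list that overlap a low-input L1601PDP peak, by rank of the peak in its own list, and lines give exact 95% intervals for counting error. The share is 45% in ranks 1 to 20 and 0.763% in ranks 121 to 382.

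At the 22 sites in both lines the summits lay close together. Their distance was 14.5 bp at the median and 1 to 105 bp in all, with 21 of 22 within 100 bp. Folds and pileups are the authors' own values over each line's input, and are set side by side here without a comparison of height, since the libraries were scaled separately. Median folds were 6.92 (3.86 to 22.2) in the L1601PDP list and 11.9 (4.39 to 43.0) in the DEGFDLNRDP list, and the fold was the larger number in the L1601PDP list at 2 of 22 sites, near Iftap and near Fam169b. The order of the sites was partly shared, with a Spearman correlation of 0.478 and a Pearson r of log2 folds of 0.512 across these 22 sites, which had to pass the p limit in both lists.

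The strongest L1601PDP site lay on chromosome 15 from 63255675 to 63256072, 1266 kb beyond Myc and 520 kb from the closest coding gene. Its fold was 22.2 in the L1601PDP list with a summit pileup of 68, and 26.6 in the DEGFDLNRDP list with a pileup of 59. It was also the third strongest of the 382 DEGFDLNRDP peaks. That list held a further pair of peaks in the same region, from 63279822 to 63279915 (fold 5.84) and from 63279977 to 63280048 (fold 6.38), where the L1601PDP list had none. No other ICN1 peak of either line lay between Myc and these sites.

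Of the sites in both lines, 7 lay inside a coding gene. Inside Ctnnd2, which encodes the cell-junction protein delta-catenin, the peak on chromosome 15 from 30975157 to 30975326 had a fold of 11.5 in the L1601PDP list, and 43.0 in the DEGFDLNRDP list, where it was the strongest low-input peak. Inside Nck2, an adaptor of tyrosine kinase signalling, the peak on chromosome 1 from 43500346 to 43500546 had folds of 12.1 in the L1601PDP list and 16.8 in the DEGFDLNRDP list. Inside Stk3, a Hippo pathway kinase, the folds at chromosome 15 from 34890835 to 34890934 were 8.85 in the L1601PDP list and 20.7 in the DEGFDLNRDP list. Inside Lpp, a LIM-domain protein of cell adhesions, the L1601PDP list had a fold of 3.86 and a pileup of 11 on chromosome 16 from 24428874 to 24428978, and the DEGFDLNRDP list had 24.1 and 38, at a local input of 4.94 and 1.46 times the library mean in these lists. Sites inside Itpr2, a calcium release channel, inside Arhgef10l, a guanine nucleotide exchange factor, and inside Spsb4, an adaptor of a ubiquitin ligase, had folds of 5.98, 4.83 and 4.85 in the L1601PDP list, against 10.5, 11.9 and 10.8 in the DEGFDLNRDP list.

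Other sites of both lines lay outside genes. Dennd2d, of a family of Rab exchange factors, was 20.1 kb from a site on chromosome 3 from 106462274 to 106462454 with folds of 15.0 in the L1601PDP list and 21.6 in the DEGFDLNRDP list. The site 9.35 kb from Iftap, a gene of intraflagellar transport, had 14.8 in the L1601PDP list and 8.78 in the DEGFDLNRDP list. Gm266, a predicted gene, was 9.63 kb from a site with folds of 11.5 in the L1601PDP list and 35.2 in the DEGFDLNRDP list. Kcng3, a potassium channel subunit, was 24.8 kb from a site with 10.7 in the L1601PDP list and 21.3 in the DEGFDLNRDP list. Copb1, a coat protein of Golgi vesicles, was 4.83 kb from a site with 7.05 in the L1601PDP list and 12.0 in the DEGFDLNRDP list. Acbd6, an acyl-CoA binding protein, and Dars, the aspartyl-tRNA synthetase, were 31.9 and 27.1 kb from sites with 6.09 and 4.83 in the L1601PDP list, against 11.8 and 8.17 in the DEGFDLNRDP list. A site 1.98 kb from Fam169b and 38.2 kb from Igf1r, a growth factor receptor known as a Notch target in T-ALL, had 6.86 in the L1601PDP list and 4.39 in the DEGFDLNRDP list.

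Sites over 50 kb from any coding gene made up 7 of the 22. The closest genes of 2 of them encode T-lineage transcription factors. Lef1, a partner of beta-catenin, was 163 kb from a site on chromosome 3 from 130947088 to 130947220 with folds of 7.71 in the L1601PDP list and 18.2 in the DEGFDLNRDP list. Runx1 was 327 kb from a site on chromosome 16 from 93152832 to 93152883 with 5.21 in the L1601PDP list and 6.83 in the DEGFDLNRDP list. Distance alone does not tie a site to a gene, and no contact or expression data were analysed here. The others lay 225 kb from Atxn7l3b (6.98 in the L1601PDP list and 9.39 in the DEGFDLNRDP list), 1397 kb from the lipid kinase gene Pik3c3 (5.29 and 9.48), 199 kb from the methyltransferase gene Eef2kmt (4.56 and 14.0), 536 kb from the neuronal gene Slitrk1 (3.86 and 7.98), and beyond Myc as above.

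**Figure D3:**
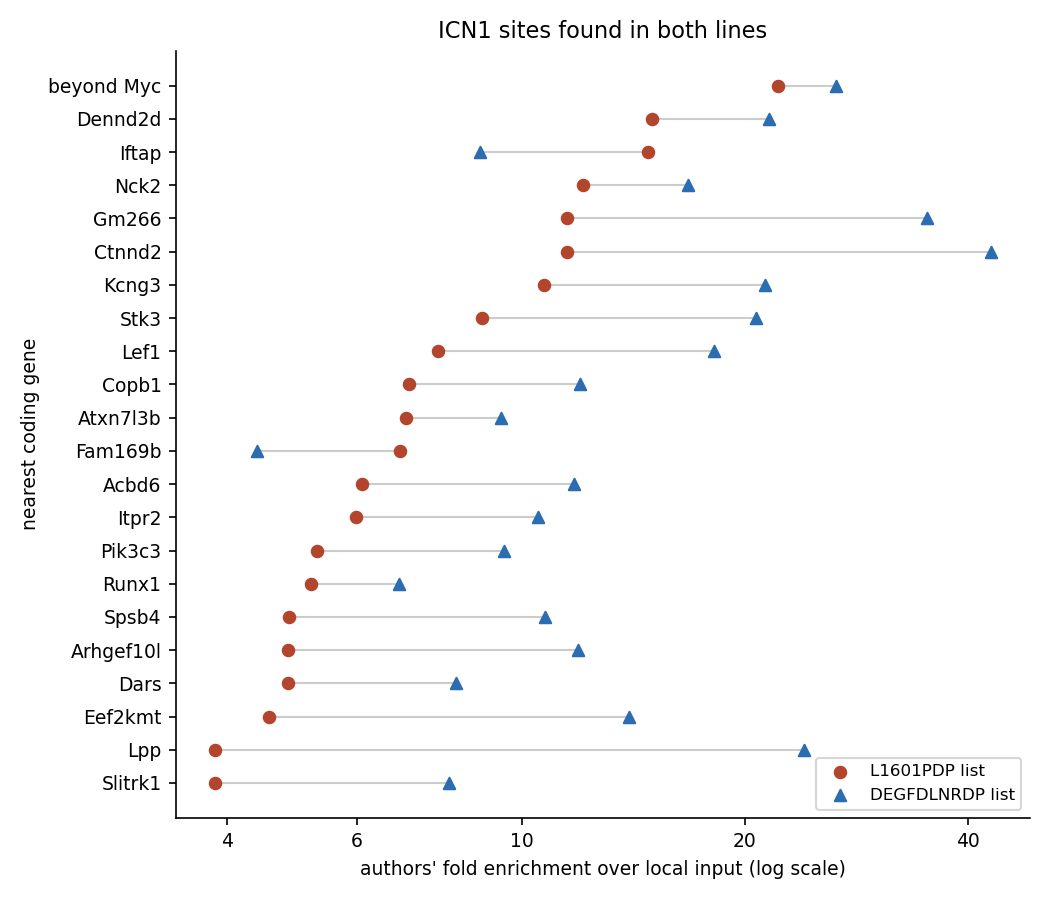
The 22 ICN1 sites found in both lines, named by the nearest coding gene (the site beyond Myc by that gene), with the authors' fold over local input on a log scale. Circles are the L1601PDP list and triangles the DEGFDLNRDP list, and the triangle lies to the right at 20 sites and to the left at Iftap and Fam169b.

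The 7 sites of the L1601PDP list alone were weak. Their median fold was 4.89 (4.19 to 7.60) at a median pileup of 6, against 6.92 and 12 for the L1601PDP peaks found in both lines. Their local input was at 1.01 times the library mean at the median, against 2.86 for those in both lines. The lowest value in each list was also 1.01, so any lower input cannot be seen here. The strongest of the 7 sites lay inside Nln, the peptidase neurolysin, on chromosome 13 from 104058902 to 104058953 (fold 7.60, pileup 12). It was followed by sites inside Map2k4, a kinase upstream of JNK (fold 6.28, pileup 8), and inside Spidr, a scaffold of DNA repair (4.89, pileup 6). A site 9.31 kb from the olfactory receptor gene Olfr108 had a fold of 4.89, and one 54.9 kb from Erg, an ETS-family transcription factor of blood cells, had 4.53. Sites inside Bloc1s5, of an organelle-trafficking complex, and 113 kb from Slc7a12, an amino acid transporter, had 4.19 each at a pileup of 5. The nearest low-input DEGFDLNRDP summit was 226 to 4216 kb away from these 7.

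The 360 peaks of the DEGFDLNRDP list alone had a median fold of 6.50 (3.74 to 22.9) and a median pileup of 11, against 11.9 and 24.5 for the DEGFDLNRDP peaks found in both lines. The strongest lay in Rec114, a meiotic recombination gene, with a fold of 22.9 and a pileup of 37, and in Naxd, a metabolite repair enzyme, with 22.5 and 35. A pair of strong sites lay inside genes known as Notch targets. Inside Notch3, a Notch receptor, the peak on chromosome 17 from 32164276 to 32164545, 2.53 kb after the gene start, had a fold of 19.2 and a pileup of 36. Inside Ccnd3, which encodes cyclin D3, that on chromosome 17 from 47542220 to 47542381 had 17.2 and 30. The nearest low-input L1601PDP summit to Notch3 was 5291 kb away. Rhoh, a GTPase of blood cells required in T-cell receptor signalling, was 2.5 kb from a site with 14.8.

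Of the 20 strongest sites of the DEGFDLNRDP list alone, 3 lay in promoter windows printed above. Zbtb11, a zinc finger protein, had a fold of 18 with its summit 189 bp before the start, Cnot10, of the CCR4-NOT deadenylase, had 16.6 with its summit 5 bp before, and Gpkow, a splicing-associated protein, had 15.3 at 63 bp before. Inside Xrcc6, which encodes the DNA-repair protein Ku70, the fold was 14.2, inside Gipc1, a PDZ-domain adaptor, 15.9, inside Necab1, a calcium-binding protein, 14.0, inside Aff1, of the transcription elongation machinery, 10.6, and inside the phosphodiesterase gene Pde10a 12.5. Near the kinase gene Pak4 (0.977 kb) the fold was 15.4. The remaining sites among the 20 strongest lay near Irak1bp1 (16.9), Spats1 (15.4), Macir (14.0), Gm52008 (13.5), the guidance molecule gene Rgma (13.7) and the LIM-only cofactor gene Lmo4 (12.4).

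ICN1 sites of either line were mostly Rbpj sites. The Rbpj list is long, at 20993 peaks, and 7246 of all 32851 promoter windows overlapped one. Rbpj, profiled in the L1601PDP line against the same input as that line's ICN1, had a peak at 79.3% of low-input L1601PDP peaks. For low-input DEGFDLNRDP peaks the Rbpj share was 96.6%. Rbpj was at 22 of the 22 sites in both lines (100%, exact interval 84.6 to 100) and at 1 of the 7 of the L1601PDP list alone (14.3%, 0.361 to 57.9). Of the 360 of the DEGFDLNRDP list alone, 347 had Rbpj (96.4%, 93.9 to 98.1). The L1601PDP line thus had Rbpj peaks at nearly all sites of the other line where its own ICN1 list had none. The Rbpj fold was 18 at the median (6.28 to 43.0) over sites in both lines and 12.8 (3.87 to 59.0) over those of the DEGFDLNRDP list alone that had a peak. The site inside Gipc1 had the fold of 59.0 and no L1601PDP ICN1 peak.

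The same counts were made among weak peaks. Among L1601PDP peaks with a −log10 p under 10, Rbpj was at 0 of 6 in that list alone and at 10 of 10 in both lines. Among DEGFDLNRDP peaks under that value it was at 168 of 177 (94.9%, exact interval 90.6 to 97.6). The 1 L1601PDP site outside the other list with Rbpj was that inside Nln (Rbpj fold 13.6). Only 13 of the 360 sites of the DEGFDLNRDP list alone lacked Rbpj, the strongest by −log10 p being near Rnf157 (ICN1 fold 9.05) and Kcnj16 (9.10).

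HA-Zmiz1, profiled in the DEGFDLNRDP line against the same input as that line's ICN1, was present at 65.5% of low-input L1601PDP and 72.8% of low-input DEGFDLNRDP peaks. It lay at 19 of the 22 sites in both lines (86.4%, exact interval 65.1 to 97.1), at 0 of the 7 of the L1601PDP list alone (up to 41.0%) and at 259 of the 360 of the DEGFDLNRDP list alone (71.9%, 67.0 to 76.5). The strongest HA-Zmiz1 fold at a shared site was 20.2, beyond Myc. Near Kcng3 and Eef2kmt neither line's peak met HA-Zmiz1, while near Lef1 the DEGFDLNRDP peak did (HA-Zmiz1 fold 14.1) and the narrower L1601PDP peak did not, and inside Arhgef10l it was the reverse. Flag-Zmiz1, profiled in the L1601PDP line against the same input as that line's ICN1, was at 0 of 29 low-input L1601PDP peaks (0%). Of the low-input DEGFDLNRDP peaks, 0 of 382 had Flag-Zmiz1 (0%). At high-input peaks Flag-Zmiz1 was at 42 of 53 in the L1601PDP list (79.2%) and at 30 of 32 in the DEGFDLNRDP list (93.8%). It was not alone there, with Rbpj at 39 of 53 and 31 of 32 and HA-Zmiz1 at 26 of 53 and 24 of 32. Median folds at those of the L1601PDP list were low, at 2.94 for Flag-Zmiz1, 2.48 for Rbpj and 2.38 for HA-Zmiz1. At those of the DEGFDLNRDP list they were 2.78, 2.48 and 2.42.

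Histone segments were found at most sites in both lines and of the DEGFDLNRDP list alone. All came from the L1601PDP line, whose libraries share an input. There were 46130 H3K4me1 and 26767 H3K4me3 segments, and 33646 labelled H3K27me3 and 25172 labelled H3K27ac. The share of the genome under them is not given here, so the shares below have no base rate beside them. H3K4me1, a mark of enhancers, covered 82.8% of low-input L1601PDP and 82.5% of low-input DEGFDLNRDP peaks, namely 22 of 22 sites in both lines, 2 of 7 of the L1601PDP list alone and 293 of 360 of the DEGFDLNRDP list alone (81.4%, exact interval 77.0 to 85.3). H3K4me3 covered 79.3% of low-input L1601PDP and 91.9% of low-input DEGFDLNRDP peaks, namely 22 of 22, 1 of 7 and 329 of 360 (91.4%, 88.0 to 94.1) in the same order of classes. Segments of the library labelled H3K27me3 covered 79.3% and 93.5%, and those of the library labelled H3K27ac 0% and 1.05%, of the low-input L1601PDP and DEGFDLNRDP peaks. The library labelled H3K27ac covered 53 of 53 high-input L1601PDP peaks and 32 of 32 high-input DEGFDLNRDP peaks. The deposited names of these H3K27 data go against their labels, so neither mark is assigned here. The L1601PDP site near Erg lay in an H3K4me1 segment (fold 2.24) with no Rbpj peak.

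Position relative to genes was also counted. No share over the genome is given beside these counts, so they are not read as a trait of a class. No low-input L1601PDP peak lay within 1 kb of the end of a coding gene (0%), against 16.5% of low-input DEGFDLNRDP peaks. All 63 such peaks were in the DEGFDLNRDP list alone, 17.5% of its 360 (exact interval 13.7 to 21.8), whereas 0 of 22 sites in both lines (up to 15.4%) were so placed. Inside a gene span lay 7 of 22 sites in both lines (31.8%), 4 of 7 of the L1601PDP list alone and 163 of 360 of the DEGFDLNRDP list alone (45.3%). Over 50 kb from any gene lay 31.8% of sites in both lines and 15.0% of those of the DEGFDLNRDP list alone.

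The classes also differ in strength, so these shares were repeated in the 60 strongest DEGFDLNRDP peaks, of which 17 were in both lines and 43 were not. Rbpj was then at 17 of 17 and 43 of 43, HA-Zmiz1 at 14 of 17 and 38 of 43, H3K4me1 at 17 of 17 and 34 of 43 and H3K4me3 at 17 of 17 and 38 of 43. Within 1 kb of a gene end were 0 of 17 and 7 of 43. The median folds were still unequal, at 16.8 for those in both lines and 12.5 for the others.

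**Figure D4:**
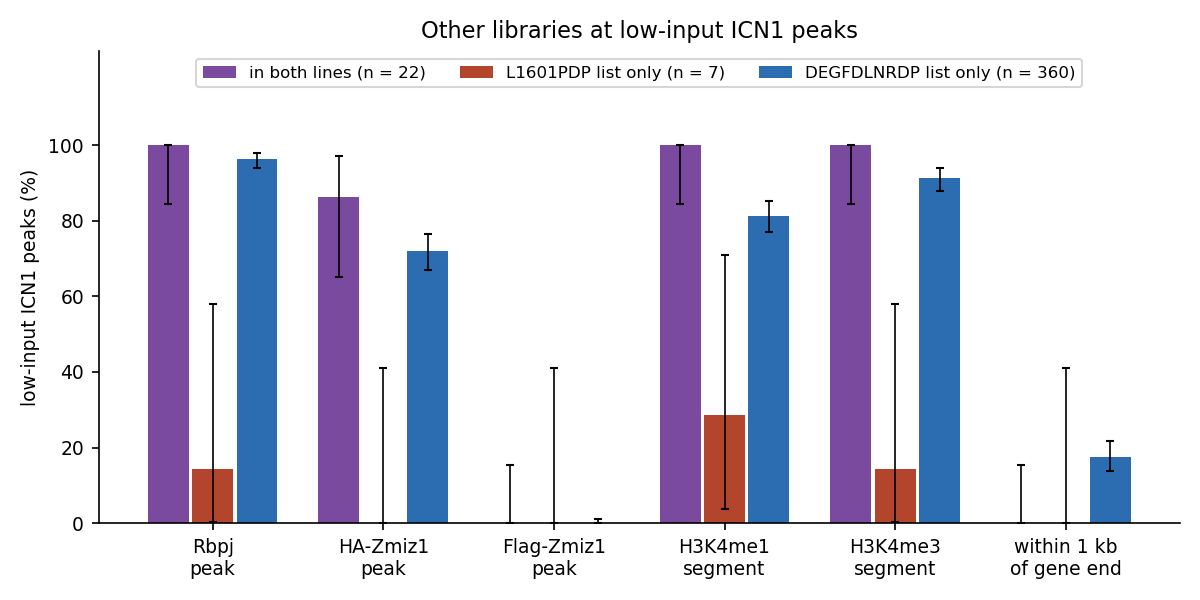
Percentage of low-input ICN1 peaks that overlap a peak or segment of another library, or lie within 1 kb of a gene end, for the 22 sites in both lines, the 7 of the L1601PDP list alone and the 360 of the DEGFDLNRDP list alone, with exact 95% intervals. Rbpj stands at 100%, 14.3% and 96.4%, Flag-Zmiz1 at 0 in these 3 classes, which leave out the high-input peaks, and gene ends at 17.5% in the DEGFDLNRDP list alone.

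Coding genes within 50 kb of a low-input ICN1 summit numbered 33 in the L1601PDP line (0.151% of 21887) and 737 in the DEGFDLNRDP line (3.37%). In both were 22 genes, which is 66.7% of the L1601PDP set and 2.99% of the DEGFDLNRDP set. The 11 near L1601PDP peaks alone included Cebpd, a myeloid transcription factor gene, Eef1e1 and the olfactory receptor genes Olfr107 to Olfr110, and no gene of the lists below. With windows this wide several genes share a peak, so genes are not independent counts.

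Of 32 components of the Notch pathway, 0 were within 50 kb of a L1601PDP peak, against 0.151% of all coding genes, and 3 (9.38%, exact interval 1.98 to 25.0) were within 50 kb of a DEGFDLNRDP peak, against 3.37%. Those were Notch3 (above), Aph1a, with a fold of 5.99 at the start printed above, and Mfng, a glycosyltransferase that tunes ligand choice, 29.1 kb from a peak with 5.99. Notch1 had no peak within 50 kb in either line, and the nearest DEGFDLNRDP summit was 1290 kb away.

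Of 25 Notch target genes known in T cells and T-ALL, 1 (4%, exact interval 0.101 to 20.4) was near a L1601PDP peak, against 0.151% of all coding genes. Near a DEGFDLNRDP peak were 8 (32.0%, 14.9 to 53.5), against 3.37%. The 1 near a L1601PDP peak was Igf1r. Among feedback regulators of the DEGFDLNRDP list, Dtx1, a ubiquitin ligase, held 2 peaks, the stronger on chromosome 5 from 120685740 to 120685947 with a fold of 10.8 and an Rbpj fold of 49.7. Nrarp, an inhibitor of the Notch complex, was 12.6 kb from a peak with 8.96. Among growth genes, Ccnd3 held 2 peaks (17.2 and 8.48) and Cdk6, the kinase partner of D cyclins, held 1 with 7.32. Tcf7, a transcription factor that starts T-cell development, was 30.7 kb from a peak with 8.56, and Trib2, a pseudokinase, held 1 with 5.72. The Rbpj peaks of the L1601PDP line were at all of these DEGFDLNRDP peaks, and ICN1 peaks of that line were at none but that near Igf1r.

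Several classical targets had no low-input ICN1 peak within 50 kb in either line. Myc was 1266 kb from the nearest peak in both. Hes1, a repressor that is an archetypal Notch target, was 5636 kb from the nearest L1601PDP summit and 655 kb from the nearest DEGFDLNRDP summit. Ptcra, the pre-T-cell receptor alpha chain, was 9300 and 768 kb away in the L1601PDP and DEGFDLNRDP lists, and Il7r, a cytokine receptor, 21445 and 2693 kb. Il2ra, the alpha chain of the interleukin-2 receptor, had none within 13475 kb in the DEGFDLNRDP list.

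Of 25 T-cell receptor and surface genes, 0 (up to 13.7%) were near a L1601PDP peak, against 0.151% of all coding genes, and 12 (48.0%, exact interval 27.8 to 68.7) were near a DEGFDLNRDP peak, against 3.37%. At a background of 0.151%, a count of 0 says nothing particular about these genes or those of the other lists. Cd3d, Cd3e and Cd3g, signalling chains of the receptor, share 1 peak inside Cd3e with a fold of 6.50, and the co-receptor genes Cd8a and Cd8b1 share 1 with 7.19. Cd247, the zeta chain, held a peak with 7.96, and Cd4, the other co-receptor, was 12.3 kb from one with 4.79. The adhesion gene Cd2 held one with 8.86 and Ptprc, the CD45 phosphatase, one with 5.38. Lat and Fyb, adaptors of receptor signalling, were 24.1 and 42.5 kb from peaks with 8.15 and 4.79, and Thy1 was 18.4 kb from one with 6.66. The peak counted for Fyb overlapped the promoter window of another gene, Rictor, with its summit 244 bp before that start. The peaks near these T-cell genes were of middle to low rank, between 85 and 323 of 382, where few sites were in both lines. Those for Ptprc, Fyb and Cd4 ranked 306, 319 and 323. With windows of 5 kb, 5 of the 25 had a DEGFDLNRDP peak, against 1.19% of all coding genes. Of the 12 T-cell markers, all but Bcl11b also in this list, 7 were near a DEGFDLNRDP peak and 0 near a L1601PDP peak.

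For each list below, the shares of all coding genes were 0.151% near a L1601PDP peak and 3.37% near a DEGFDLNRDP peak. Of 25 T-lineage transcription factors, 0 were near a L1601PDP peak and 5 (20%, exact interval 6.83 to 40.7) near a DEGFDLNRDP peak. These were Tcf7, Ets1 (7.71), the repressor genes Gfi1 (4.39) and Bcl6 (7.88), and Ikzf1 (best fold 5.54), which encodes Ikaros. Of 20 cell-cycle and growth genes, 1 (Igf1r) was near a L1601PDP peak and 4 were near a DEGFDLNRDP peak, namely Igf1r, Ccnd3, Cdk6 and the inhibitor gene Cdkn1a (5.99). For other lineages, 0 of 12 B-lineage markers and 0 of 12 myeloid markers were near a L1601PDP peak, against 1 of 12 (Blnk, 5.19) and 2 of 12 (Itgam, 9.05, and Mpo, 4.49) near a DEGFDLNRDP peak.

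**Figure D5:**
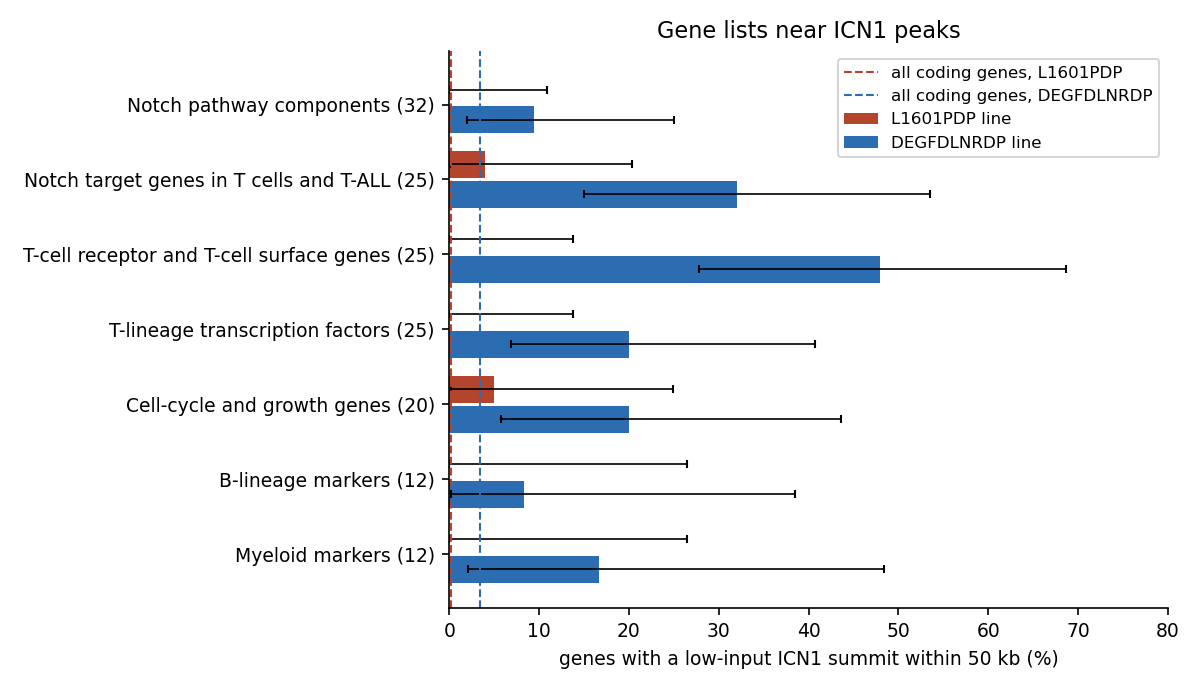
Percentage of each gene list, with its number of genes in brackets, that has a low-input ICN1 summit within 50 kb, for the L1601PDP line (upper bar of a pair) and the DEGFDLNRDP line (lower bar), with exact 95% intervals. Dashed lines give the shares of all coding genes, 0.151% and 3.37%, and the longest bar drawn is that of the T-cell receptor and surface genes in the DEGFDLNRDP line, at 48.0%.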

How the data were processed

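ChIP-seq peak lists of 2 ICN1 libraries were compared, with the Rbpj, Zmiz1 and histone lists of the series as annotation. Per the file headers, MACS 2.0.10.20120913 had called peaks against each line's input at a p limit of 1e-05, keeping 1 duplicate tag and with an effective genome size of 1.87e+09. The mm10 build, SICER 1.1, HOMER 4.2, MACS2 2.0.10 and Bowtie 0.12.7 are named in the submitters' processing notes. The deposited peaks come with the pileup signal of the summit, the fold (a ratio to local input) and the −log10 p-value, all made by the authors and used here to describe, rank and filter within a list. For histone segments the deposited values are read counts, the fold over the control and the p-value, made by the authors; the read counts were not used in a result. Headers give the depth of the ICN1 libraries; that of the histone libraries is unknown. Fragment lengths near the read length can affect peak widths and pileups.

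From these values, overlaps of at least 1 bp, local input, nearest coding genes and gene lists were computed in Python 3.11.15 with pandas 2.3.3, numpy 2.4.6 and scipy 1.17.1. The overlap code was tested on simulated data. Gene spans and promoters came from RefSeq (GRCm38.p6); exon and UTR annotation was not used, and neither was a genome sequence. All listed genes matched by symbol. Named were the genes nearest each shared and each L1601PDP-only low-input peak and the 20 strongest DEGFDLNRDP-only peaks, list genes within 50 kb and a fixed set of Notch genes. Members, lists and the limit of 10 times the mean input were chosen with earlier results of these data known. Rank ranges, the 60-peak set and the class of weak peaks were chosen after seeing the values.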

Additional observations from a re-analysis of the deposited data

How the results depend on the processing

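No paired analysis was possible because each line had 1 ICN1 library and no result came from a test. Leaving out a library would leave nothing to compare. The overlap rule (at least 50% of the shorter peak, summits within 100 bp, or peaks widened by 200 bp) moved no overlap share beyond its interval. Without high-input peaks, the share of L1601PDP peaks in the other list was 75.9%, against 62.2% with them. Limits of 5, 10 and 20 times the mean keep the same 29 L1601PDP peaks, so this share could not differ between them. The share of DEGFDLNRDP peaks was 5.82% at the limit of 5, against 12.8% with high-input peaks. It was 5.76% at 10 and 20, which keep the same 382 peaks. With as many strongest peaks from each list as the shorter holds, both shares were 32.9% (27 of 82), and among low-input peaks, an alternative chosen after seeing the data, 34.5% (10 of 29). Among peaks with a −log10 p of 10 or more, Rbpj, H3K4me1 and H3K4me3 were each at 100% of 13 low-input L1601PDP peaks, against 79.3%, 82.8% and 79.3% of all 29, and H3K4me1 at 86.3% of DEGFDLNRDP peaks, against 82.5%. With the ICN1 summit inside the other peak, HA-Zmiz1 was at 66.0% of DEGFDLNRDP peaks, against 72.8%. In the gene lists, the 5 kb window left 5 of 25 T-cell receptor and surface genes (20%) near a DEGFDLNRDP peak, against 1.19% of all coding genes. It left no Notch target near a L1601PDP peak, against 0.0594% of all coding genes. In all, 27 of 112 alternative values moved beyond the interval. Apart from the filters themselves, the cause of these moves was not tested. Some of the other values could not move, such as those at input limits that keep the same peaks. Neither could narrower windows at lists with no gene near a peak, so this count does not measure how firm the results are. Sites with pileups of 5 to 12 are near the detection limit at this depth, so a site missing from a list is not shown to be unbound.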
